A study of Mus musculus with 16 samples.

Results

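Angptl4, Pdk4, Pck1, Gpd1, Aqp7 and Pcx are 6 genes of glycerol and glucose handling that are known as targets of peroxisome proliferator-activated receptors (PPARs). They were examined in a study of the SET domain protein SETD5 during differentiation of 3T3-L1 cells, a mouse preadipocyte line. The members come from a list and were not picked by a measured value, though earlier results of these data were known. They are 6 of the 22225 protein-coding genes annotated on the main chromosomes. Each was examined as its gene body plus 50 kb on either side in the mm9 genome, and every island overlapping that window was taken from all 16 deposited lists. An island is a run of sequenced fragments enriched over the genome in chromatin immunoprecipitation sequencing (ChIP-seq), called in each library on its own.

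Acetylation of histone H3 at lysine 27 (H3K27ac), a mark of active enhancers and promoters, was measured in 8 libraries. These came from cells stably transduced with an empty retroviral vector or with a vector for SETD5 carrying a V5 tag (labelled SETD-V5), each before differentiation (day 0, 0 h) and at day 2 (48 h), with 2 libraries per group (replicates A and B). The vector drives SETD5 from a weak viral promoter and was added to cells that still held their own gene. The study reports more Setd5 mRNA in the transduced cells than in empty-vector cells. Tagged SETD5 was immunoprecipitated with a V5 antibody at 0 h and 6 h in 2 libraries each; the virus is named for replicate B only, and is entered as a dash for replicate A. Monomethylation of histone H3 at lysine 4 (H3K4me1), found at enhancers whether poised or active, had 1 library at 0 h and 1 at 48 h; the labels name the SETD-V5 virus for these cells, whereas the study describes them as preadipocytes with no virus named, so which cells these values belong to is unsettled. Endogenous SETD5 had 1 library at 0 h and 1 at 6 h with no virus entered. Cells of 6 h and 48 h had been induced with insulin, dexamethasone and isobutylmethylxanthine after confluence, and those of 0 h were taken before induction. The study calls the H3K27ac and SETD5-V5 pairs biological replicates, and the labels do not say how they were separated.

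PPARγ, the receptor that drives fat cell formation, binds DNA with RXR at a pair of half-sites of the form AGGTCA spaced by 1 base, called a direct repeat. In fat cells its targets include genes that feed glycerol into triglyceride and let it out again. Angptl4 encodes a secreted inhibitor of lipoprotein lipase. Pdk4 encodes a kinase that shuts off pyruvate dehydrogenase. Pcx encodes pyruvate carboxylase, which makes oxaloacetate from pyruvate, and Pck1 encodes the cytosolic enzyme that turns oxaloacetate into phosphoenolpyruvate on the way to glycerol. Gpd1 encodes the cytosolic glycerol-3-phosphate dehydrogenase, and Aqp7 encodes the channel through which glycerol leaves the fat cell.

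The promoters of 4 of the members were matched without mismatch between the RefSeq promoter table (made on GRCm38.p6) and the mm9 genome, and are given on mm9. They are shown because acetylation reached the start sites of some members and not of others. Each runs from 250 bases before to 50 bases after a start site on the gene's own strand. Capitals mark direct repeats with at most 2 mismatches in the 12 half-site bases, searched on both strands; 3.86% of the 32851 RefSeq promoters of 300 bases held one.
Pdk4, chr6:5446229-5446528, minus strand: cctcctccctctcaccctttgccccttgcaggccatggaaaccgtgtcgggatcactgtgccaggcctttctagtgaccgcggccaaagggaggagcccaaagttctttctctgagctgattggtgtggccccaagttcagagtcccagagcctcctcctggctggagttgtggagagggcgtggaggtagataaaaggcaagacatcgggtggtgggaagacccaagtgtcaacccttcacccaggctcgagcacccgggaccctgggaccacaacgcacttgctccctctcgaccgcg
Pck1, chr2:172978324-172978623, plus strand: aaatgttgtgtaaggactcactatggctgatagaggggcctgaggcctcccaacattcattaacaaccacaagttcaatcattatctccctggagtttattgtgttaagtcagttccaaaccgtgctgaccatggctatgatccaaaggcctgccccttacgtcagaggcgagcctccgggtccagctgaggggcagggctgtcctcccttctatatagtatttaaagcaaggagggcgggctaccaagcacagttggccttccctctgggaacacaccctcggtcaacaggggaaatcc
Aqp7, chr4:40994946-40995245, minus strand: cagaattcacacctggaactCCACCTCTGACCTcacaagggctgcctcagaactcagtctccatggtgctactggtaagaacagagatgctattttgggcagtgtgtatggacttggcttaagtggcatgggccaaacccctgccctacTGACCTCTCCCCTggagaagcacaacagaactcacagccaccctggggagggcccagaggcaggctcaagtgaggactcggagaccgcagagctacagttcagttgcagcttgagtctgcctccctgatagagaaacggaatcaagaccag
Pcx proximal start, chr19:4594069-4594368, plus strand: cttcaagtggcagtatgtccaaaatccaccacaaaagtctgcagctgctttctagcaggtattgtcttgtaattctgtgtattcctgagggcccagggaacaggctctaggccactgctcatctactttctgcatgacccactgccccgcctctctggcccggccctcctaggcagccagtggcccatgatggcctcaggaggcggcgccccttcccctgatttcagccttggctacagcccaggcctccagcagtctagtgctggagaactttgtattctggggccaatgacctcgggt
The Aqp7 promoter shown held 2 such matches, and a second RefSeq promoter of Aqp7 (chr4:40995120-40995419) held 1. The other promoters held 0, among them that of the distal Pcx start (chr19:4510222-4510521). The letters TTGCNNAA, a C/EBP motif present in 10.8% of those promoters, were absent from these windows. CpG dinucleotides numbered 20 in the distal Pcx promoter, 12 in that of Pdk4, 6 in that of Pck1, 5 in the proximal Pcx promoter, 3 in the Aqp7 promoter shown and 0 in the second one, beside a median of 7 over all promoters.

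Direct repeats with at most 1 mismatch numbered 27 in the 6 windows. H3K27ac islands of empty-vector cells covered 88.6 and 70.4 kb of these windows at 0 h and 206 and 185 kb at 48 h. The part of this covered length in the next counts was not tested. Of the 27 repeats, 7 lay inside an H3K27ac island of both empty-vector 48 h libraries, and 2 lay inside an island of either empty-vector 0 h library. These 7 are shown, with the match in capitals and 8 bases on each side, on the strand of the match; for Pdk4, Pck1 and Aqp7, where no match met that condition, the best match nearest the start site is shown.
Angptl4, chr17:33912720-33912732, plus strand: gggtatgaAGGTCAGAGGACAgcttgtgg
Angptl4, chr17:33911349-33911361, minus strand: cacccaaaAGGTCAAAGGACAgaacagat
Gpd1, chr15:99547002-99547014, minus strand: gggaaggaAGGTCAAAGGCCActggtgac
Pcx, chr19:4489688-4489700, plus strand: cagtttagAGGTCAGAGGACAactggtgg
Pcx, chr19:4496425-4496437, minus strand: acatgtggAGGTCAGAGGGCAacttccat
Pcx, chr19:4497153-4497165, minus strand: ccacttccAGGTCAGAGTTCAgtgaagcc
Pcx, chr19:4622169-4622181, minus strand: aggaatccAGGACAAAGGTCAcagccctg
Pdk4, chr6:5402312-5402324, plus strand: gcatactgAGGTCAGAGGTCAacaccagg
Pck1, chr2:172966320-172966332, minus strand: gtctttagAGGGCAAAGGTCAaggatgtt
Aqp7, chr4:40979283-40979295, minus strand: tgccagtcAGGTCAGAGATCAattttcag
The first Angptl4 match lies in an intron, 5.79 kb downstream of the start, and the second in a UTR at 7.17 kb. Both were inside H3K27ac islands of all 4 libraries of 48 h and of H3K4me1 at 48 h, and inside no island of any 0 h list. The Pcx matches at -20.8 and -14.0 kb (negative distances are upstream of the gene start) were likewise inside islands of all 4 libraries of 48 h and of none of 0 h. The Pcx match at 112 kb, just past the end of the gene, was inside both empty-vector 48 h lists and neither SETD5 48 h list. The Pdk4 match has no mismatch; it lies between genes 44.0 kb downstream of the start, inside the 48 h island of replicate A and outside that of replicate B with empty vector, and the other way round with SETD5. Over the genome, 9.39% of the 27339 sites acetylated at 48 h in both empty-vector libraries, on chromosomes of the reference sequence, held a match with at most 1 mismatch, at 2.38 matches per 100 kb. The 28 sites of the windows had 4.72 per 100 kb and were longer (median 6.2 kb beside 3.4 kb). A match is a description of the letters and not a bound site.

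H3K27ac lists held 31292 to 39949 islands covering 103 to 122 Mb, and no pair of lists was identical. The SETD5-V5 lists were far less even: replicate B at 0 h held 6666 islands and replicate A 16054, beside 27220 and 35573 at 6 h. H3K4me1 lists held 50276 and 49926 islands, and those of endogenous SETD5 2132 and 3293. The island lists carry no read counts. The study states the total reads of each library, by which the short SETD5-V5 list of replicate B at 0 h is not from the shallower library of its pair. Absence from a list means only that a region did not pass the caller's threshold. Each island carries a score that is comparable only within its list, and it is given here as the share of that list's islands with a higher score. Promoters of the preadipocyte and fibroblast markers (Pdgfra, Pdgfrb, Col1a1, Ly6a, Dlk1) were acetylated for 5 of 5 genes in all 4 libraries of 0 h, and for 4 or 5 at 48 h. Of the adipocyte markers Adipoq, Fabp4, Plin1 and Cidec, 0 of 4 promoters were acetylated in any 0 h library, 4 of 4 in both empty-vector 48 h libraries, and 3 of 4 in both SETD5 48 h libraries, with Adipoq absent. The 5 markers of other cell types (Ptprc, Epcam, Cdh5, Myod1, Alb) were at 0 in every library. The SETD5 cells thus differed from the control cells at the Adipoq promoter, and the part of this in the values below was not tested. In these bulk samples, fewer acetylated cells cannot be told apart from less acetylation per cell.

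The first question was whether these genes gained acetylation on differentiation in control cells. Covered H3K27ac bases were higher in both 48 h libraries than in both 0 h libraries at 3 of 6 members (Angptl4, Pdk4, Pcx), a pattern shown by 32.0% of all protein-coding genes. Gpd1 overlapped between times, and Pck1 and Aqp7 had no acetylated bases at 48 h. None of the members fell by the same rule, which 18.6% of genes did. With 2 libraries against 2, the exact two-sided permutation test cannot give a p below 0.333, and each member whose groups did not overlap had that value.

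Pcx lies on chr19:4510472-4621752 and its window of 211 kb was the longest. It had 28.6 and 20.8 kb covered at 0 h (replicates A and B) and 97.8 and 89.8 kb at 48 h in empty-vector cells. The groups did not overlap: the means were 24.7 ± 5.52 kb and 93.8 ± 5.66 kb (SD, n = 2), a ratio of 3.8. The gain of 69.1 kb was exceeded by 0.0855% of protein-coding genes, and per length of window by 0.207%. Islands numbered 7 and 7 at 0 h and 11 and 15 at 48 h.

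Pdk4 (chr6:5433351-5446309, minus strand) was the only member with no other protein-coding gene in its window. Its covered bases were 11.8 and 15.0 kb at 0 h and 46.4 and 39.6 kb at 48 h. Here too the groups stood apart, with means of 13.4 ± 2.26 kb and 43.0 ± 4.81 kb (SD, n = 2) and a ratio of 3.21. The gain of 29.6 kb was exceeded by 1.05% of genes. Angptl4 (chr17:33910695-33918520, minus strand) rose from 21.8 and 16.4 kb to 34.2 and 29.6 kb, again without overlap. Its means were 19.1 ± 3.82 kb and 31.9 ± 3.25 kb (SD, n = 2), a ratio of 1.67, and the gain of 12.8 kb was exceeded by 6.01% of genes. The Angptl4 window also holds the starts of Rab11b, Kank3, Rps28 and Ndufa7.

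Gpd1 (chr15:99547946-99555436) had 26.4 and 17.4 kb at 0 h and 27.8 and 25.8 kb at 48 h, so that replicate A of 0 h lay between the 48 h libraries. Its window is crowded by 6 other genes, among them Smarcd1 and 2310016M24Rik next to it. When the window was shortened to 10 kb on either side, the groups no longer overlapped and the gain was 8.9 kb.

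**Figure D1:**
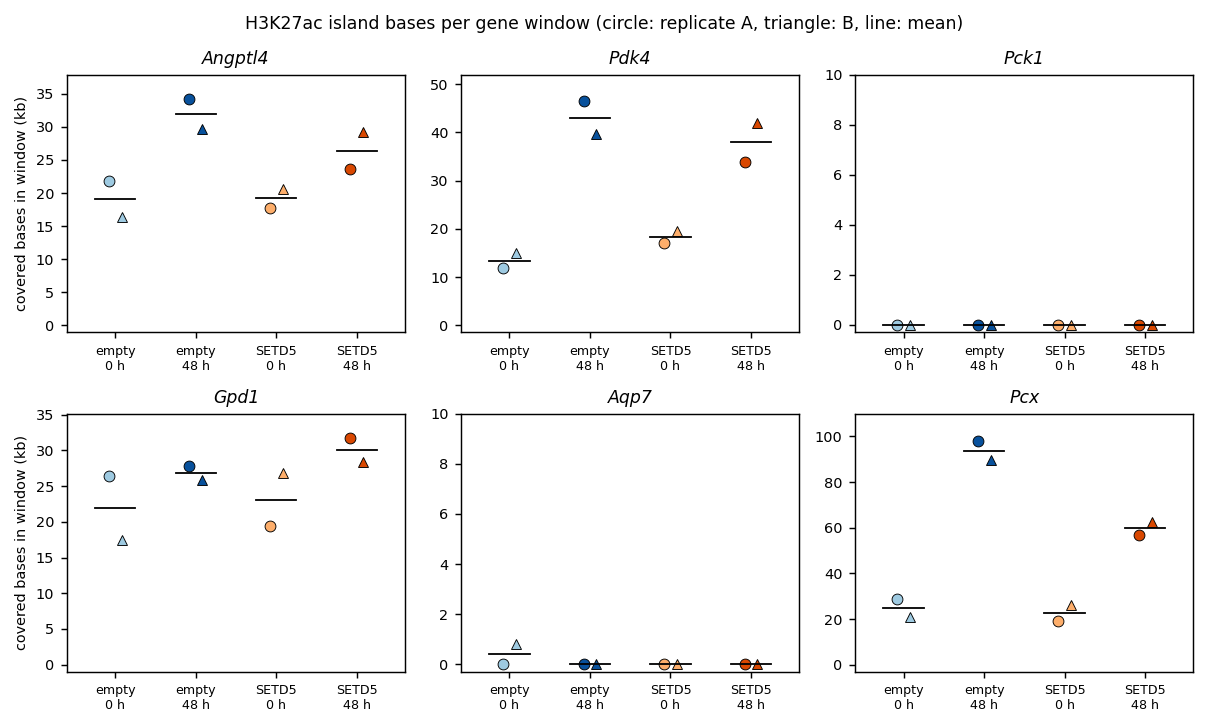
Covered H3K27ac bases (kb, y axis) in the window of each gene, by vector and time (x axis). Circles are replicate A, triangles replicate B and lines the mean of the pair; Pcx went from 24.7 to 93.8 kb in empty-vector cells and to 59.8 kb in SETD5 cells, and Pck1 stayed at 0 in every library.

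Pck1 (chr2:172978549-172984774) had no H3K27ac island in any of the 8 libraries, as was the case for 18.6% of protein-coding genes. H3K4me1 covered 1.4 kb at both times, in an island that began 33.3 kb downstream of the start at 0 h and 33.1 kb at 48 h. A single SETD5-V5 island of 3.6 kb lay at 3.45 to 7.05 kb in replicate B at 0 h, and neither 6 h library had any island in the window. The window held 3 direct repeats with 1 mismatch and 21 with 2, none with fewer, and the 1-mismatch repeats lay in no island of any list.

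Aqp7 (chr4:40980107-40995172, minus strand) held 1 H3K27ac island, of 0.80 kb at -3.23 to -2.43 kb in replicate B of empty vector at 0 h, and 91.7% of that list scored higher. No 48 h library had one, while 8 direct repeats with 1 mismatch lay in the window. H3K4me1 covered 2.8 kb at 0 h and 8.6 kb at 48 h, with 1 library each and thus no replicate check. At 48 h an H3K4me1 island of 0.80 kb lay on the Aqp7 promoter, with 97.3% of the list scoring higher, and a stronger one of 4.0 kb at -49.0 to -45.0 kb reached an exon of Aqp3, a neighbouring aquaporin gene. SETD5-V5 and endogenous SETD5 had no island in this window.

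Promoter acetylation was taken as an island anywhere in the 1000 bases before to 100 bases after each gene start. The number of members with an island there was 4 and 2 at 0 h and 4 and 4 at 48 h in empty-vector cells, beside 45.1% and 43.8%, then 46.4% and 44.8%, of all genes. In SETD5 cells it was 4 and 3, then 4 and 4, beside 45.9% and 45.1%, then 46.3% and 46.6%. Angptl4 and Pdk4 had one in all 8 libraries. The distal Pcx promoter had none in replicate B of both vectors at 0 h. The Gpd1 promoter had one in all but replicate B of empty vector at 0 h, but at 0 h these islands ended upstream of the start, the nearest at -0.746 kb. In replicate B of SETD5 at 48 h the Gpd1 start fell between islands that ended at -0.546 kb and began at 0.055 kb. Pck1 and Aqp7 had an island on the promoter in none.

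The Angptl4 start sat in 1 island that grew from 10.4 and 7.0 kb at 0 h to 13.2 and 12.6 kb at 48 h in empty-vector cells. In SETD5 cells it measured 8.0 and 7.8 kb, then 12.0 and 11.8 kb. It was among the strongest islands of every 48 h list, with 0.630% and 0.537% of islands scoring higher with empty vector and 0.512% and 0.307% with SETD5. Its downstream end moved from 4.12 and 3.12 kb at 0 h to 8.32 and 8.12 kb at 48 h with empty vector, past both Angptl4 direct repeats shown above. The Pdk4 start had an island of 2.8 and 2.6 kb at 0 h and 5.6 and 3.8 kb at 48 h in empty-vector cells, and of 4.4 and 4.8 kb at 48 h with SETD5.

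At Gpd1, 1 island of 14.6 and 13.2 kb ran from upstream of the start past the end of the gene at 48 h in empty-vector cells, ranking just below the top, with 0.358% and 0.392% of islands scoring higher. At 0 h the same stretch was acetylated over 10.6 and 4.6 kb. In SETD5 cells at 48 h it was acetylated over 13.8 and 13.6 kb, in a pair of islands per library rather than a single run. The upstream islands of these pairs, at -4.95 to 2.05 kb and -4.75 to -0.546 kb, had 38.7% and 45.7% of islands scoring higher. The downstream ones, over the start of 2310016M24Rik, had 0.358% and 0.411%. The stretch also holds the start of 2310016M24Rik, so its acetylation cannot be assigned to Gpd1 alone. The Gpd1 direct repeat shown above, at -0.938 kb, lay in 11 of the 16 lists.

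Pcx has a second annotated start 83.8 kb into the gene, the proximal promoter known from fat and liver. No empty-vector library had an H3K27ac island on it at 0 h. At 48 h both had one, of 7.2 and 4.0 kb, with 13.3% and 15.1% of islands scoring higher. SETD5 cells had an island of 2.8 kb in replicate B at 0 h that ended just upstream of this start, and islands of 2.8 and 3.2 kb at 48 h, with 52.3% and 57.2% scoring higher. All 4 libraries of 48 h thus covered the proximal start, with shorter and lower-ranked islands in SETD5 cells. H3K4me1 was already there at 0 h (3.6 kb) and spread to 11.2 kb at 48 h, and SETD5-V5 lay on the proximal promoter at 6 h in both libraries (3.0 and 4.8 kb, the first ending just upstream of the start) and at 0 h in neither.

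**Figure D2:**
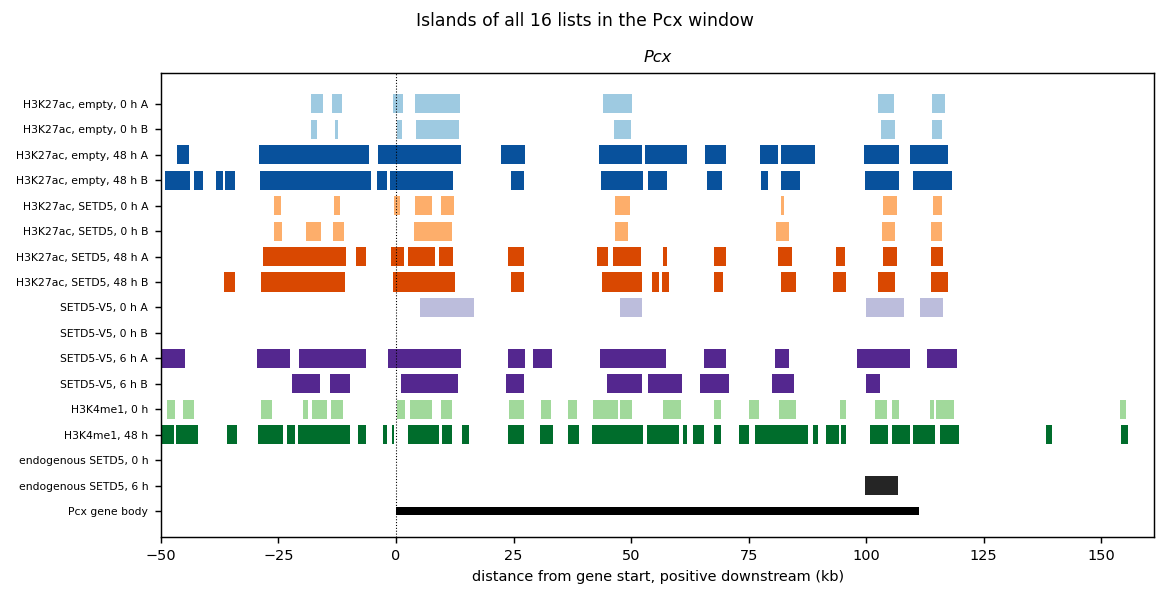
Islands of all 16 lists in the Pcx window, 1 row per library, by distance from the distal gene start (kb, x axis); the black bar is the gene body. The block at -29.1 to -5.27 kb and the islands in the gene body are long in the empty-vector 48 h rows and shorter in the SETD5 48 h rows.

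Islands of the 2 empty-vector 48 h libraries were then joined where they overlapped, and each joined stretch that held islands of both replicates was taken as a site. Bases of every list at a site were counted within these borders only. The windows held 28 sites: 11 for Pcx, 7 for Pdk4, 5 each for Angptl4 and Gpd1, and 0 for Pck1 and Aqp7. Of these, 15 had a 0 h island in both empty-vector libraries, 2 in a single library and 11 in neither, which was so for 22.4% of the sites of the genome. H3K4me1 was present at 22 of the 28 at 0 h (genome 62.1%) and at 26 at 48 h (genome 65.6%). The sites of the windows were longer than those of the genome, as given above, and the part of length in these counts was not tested.

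The widest site lay upstream of Pcx at -29.1 to -5.27 kb, over the start of 2010003K11Rik. It had 4.8 and 1.8 kb acetylated at 0 h and 23.4 and 23.6 kb at 48 h in empty-vector cells, where 0.304% and 0.202% of islands scored higher. In SETD5 cells it had 2.6 and 7.2 kb at 0 h and 19.6 and 17.8 kb at 48 h. The 48 h groups did not overlap. This site holds the Pcx direct repeats at -20.8, -14.0 and -13.3 kb.

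Inside Pcx, an intronic site at 52.9 to 61.9 kb had 0 kb at 0 h and 9.0 and 4.2 kb at 48 h in empty-vector cells, against 1.0 and 3.0 kb with SETD5. Another at 77.3 to 81.3 kb had 4.0 and 1.4 kb against 0 in both SETD5 48 h libraries. The far upstream site at -49.1 to -43.9 kb, over an exon of Syt12, was also at 0 in both, beside 2.4 and 5.2 kb with empty vector. The sites at Lrfn4 and Rce1, whose exons lie there beside those of Pcx, had 7.4 and 7.2 kb against 3.0 and 3.6 kb, and 8.0 and 8.4 kb against 2.6 and 3.6 kb. Within borders set by the empty-vector islands, every Pcx site but the one at 22.3 to 27.5 kb thus had fewer acetylated bases in both SETD5 libraries than in both controls.

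Pdk4 gained most of its acetylated bases away from the gene. A site at 43.9 to 57.9 kb, beyond the end of the gene, went from 3.6 and 5.8 kb to 13 and 13.8 kb with empty vector, and had 11.6 and 12.2 kb at 48 h with SETD5. At 22.3 to 29.1 kb there was no island at 0 h, and 6.0 and 5.8 kb at 48 h, against 3.2 and 2.8 kb with SETD5. The upstream site at -16.3 to -8.89 kb went from 3.2 and 2.4 kb to 7.4 and 5.8 kb, and measured 4.6 and 6.0 kb with SETD5. The first 2 of these did not overlap between vectors at 48 h, and the last did.

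**Figure D3:**
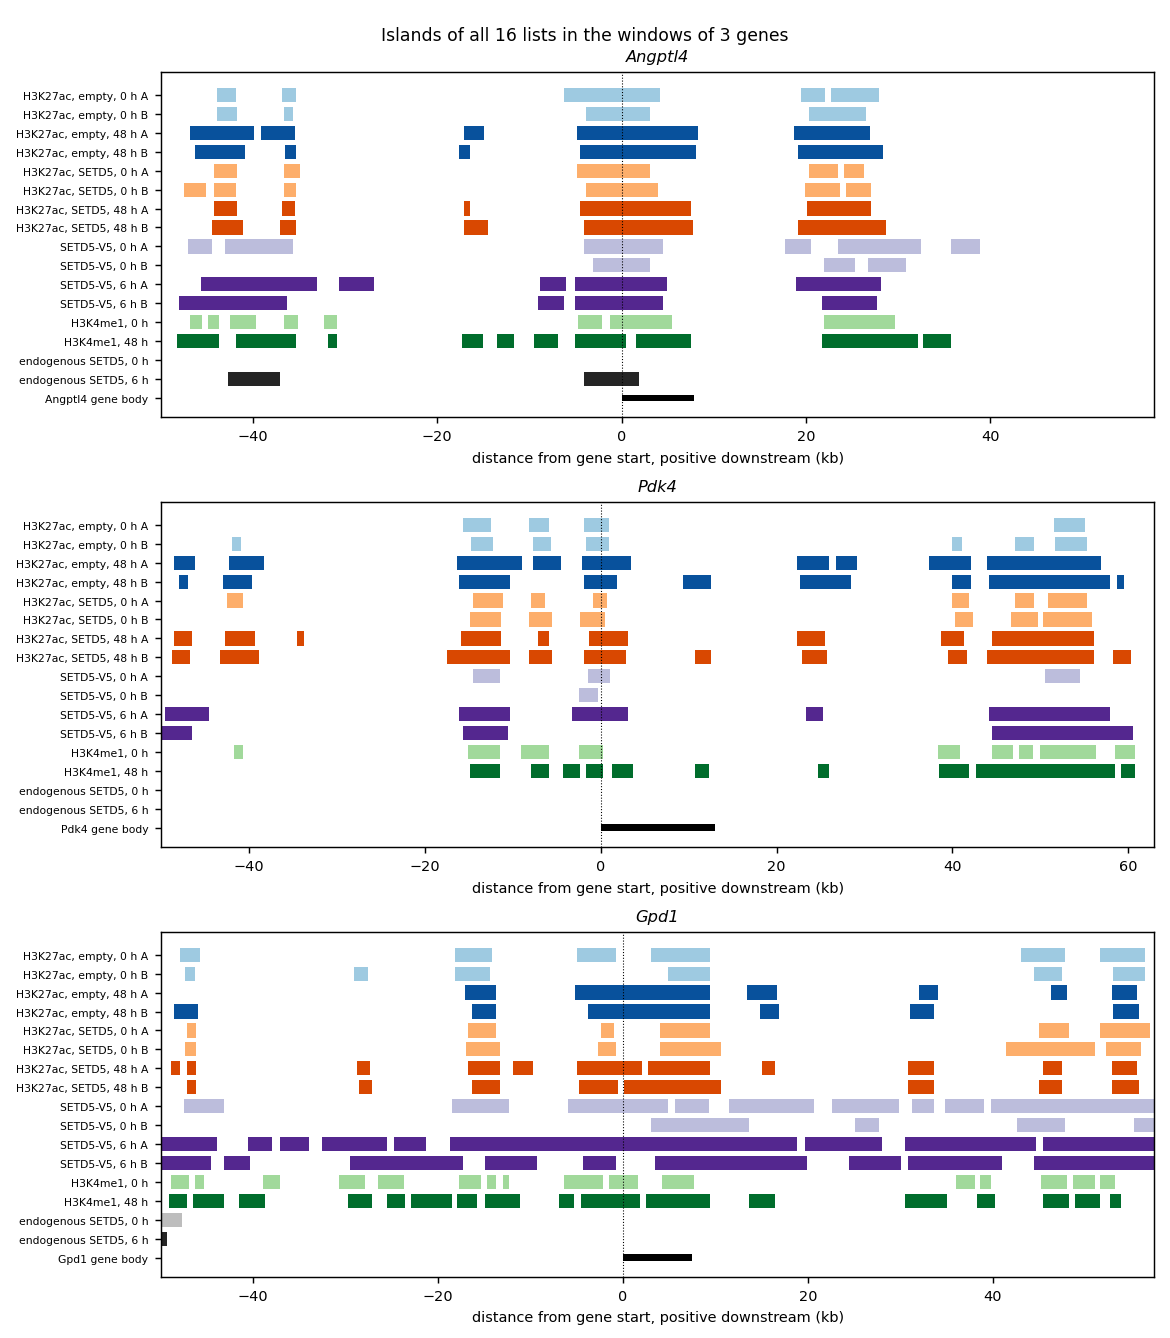
Islands of all 16 lists in the windows of Angptl4, Pdk4 and Gpd1, 1 row per library, by distance from the gene start (kb, x axis); black bars are gene bodies. The Angptl4 island over the start reaches past 7 kb in the 4 rows of 48 h H3K27ac, and the Pdk4 block near 50 kb is widest in the 48 h H3K27ac, 6 h SETD5-V5 and 48 h H3K4me1 rows.

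The second question was whether SETD5 changed this acetylation. In SETD5 cells 4 of 6 members rose from 0 h to 48 h (Angptl4, Pdk4, Gpd1 and Pcx, all genes 25.5%). The rise of Gpd1 was lost with equal numbers of islands per list and with islands above the median score, which left 3 members. Against empty vector at 48 h, Angptl4 and Pcx were lower (2 of 6, all genes 26.5%) and Gpd1 was higher (1 of 6, all genes 17.8%). Before differentiation, 0 of 6 were lower with SETD5 (all genes 11.3%) and 1, Pdk4, was higher (all genes 19.8%). The gain within each replicate letter was smaller with SETD5 than with empty vector at Angptl4, Pdk4 and Pcx (3 of 6, all genes 28.4%). The exact two-sided p was 0.333 for each of these, the smallest that this design allows. The smaller gain of Angptl4 was lost with 10 kb of flank, with bases nearest its own start and with islands above the median score. That of Pdk4 was lost with 10 kb and with 100 kb of flank, while Pcx kept it in all of these settings. When islands were counted in place of bases, no member had it.

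With SETD5 Pcx had 19.2 and 26.0 kb at 0 h, which overlapped the control, and 57.0 and 62.6 kb at 48 h, which did not. The 48 h mean was 59.8 ± 3.96 kb (SD, n = 2), 34.0 kb below empty vector and 0.638 of it, and 0.112% of genes had a larger deficit. Per length of window, the difference of 99.5% of genes lay above that of Pcx. Its gain was 37.8 and 36.6 kb with SETD5 and 69.2 and 69.0 kb with empty vector. The number of islands at 48 h did overlap, at 14 and 12 with SETD5 and 11 and 15 with empty vector.

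Angptl4 had 17.8 and 20.6 kb at 0 h and 23.6 and 29.2 kb at 48 h with SETD5, the latter below the 34.2 and 29.6 kb of empty vector by a narrow margin. With 100 kb of flank the groups overlapped. At single sites the shortfall was clearest over the shared start of Rps28 and Ndufa7 (-46.9 to -39.9 kb), where 7.0 and 5.4 kb stood against 2.6 and 3.4 kb. Pdk4 had 17.0 and 19.6 kb at 0 h and 33.8 and 42.0 kb at 48 h with SETD5, and its 48 h values overlapped those of the control. Its gains were 16.8 and 22.4 kb with SETD5 and 34.6 and 24.6 kb with empty vector. The 0 h mean it started from was higher with SETD5 (18.3 against 13.4 kb). Gpd1 had 19.4 and 26.8 kb at 0 h and 31.8 and 28.4 kb at 48 h. The higher 48 h value of Gpd1 turned to a difference of -1.37 kb when the window was shortened to 10 kb of flank.

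Over the 28 sites, acetylated bases were fewer in both SETD5 48 h libraries than in both controls at 15, and more at 0. The same rule held at 39.0% of the 27340 sites of the genome. Of the 15, 10 were in the Pcx window, 2 each in those of Angptl4 and Pdk4 and 1 in that of Gpd1. Sites were defined from the empty-vector lists, and SETD5 bases beyond their borders were not counted. Fewer bases with SETD5 is thus favoured by the definition, in the windows and over the genome alike, and these counts are descriptions. A SETD5 48 h island was still present in both libraries at 25 sites (genome 88.7%), in a single library at 1 and in neither at 2.

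**Figure D4:**
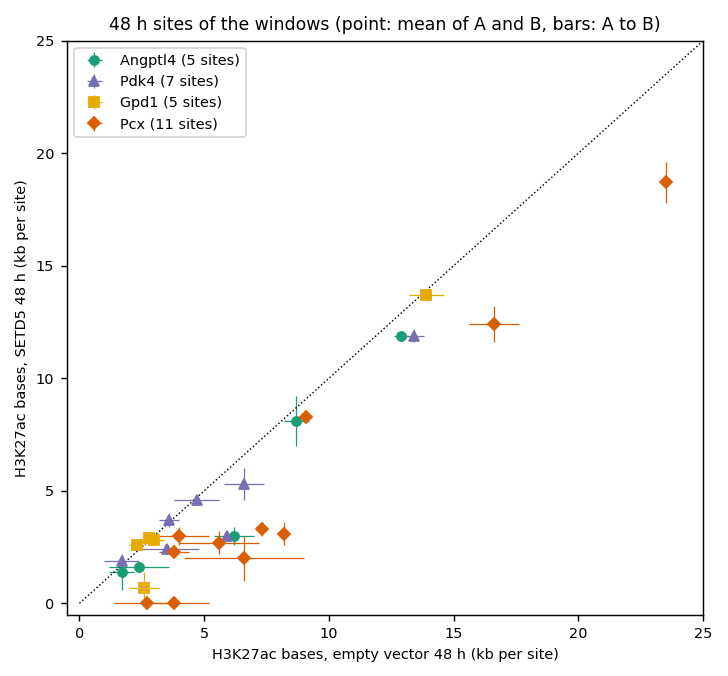
Acetylated bases at 48 h (kb) with empty vector (x axis) and SETD5 (y axis) for the 28 sites, coloured by gene; points are means of replicates A and B, bars run from one replicate to the other, and the dotted line marks equal values. Bases are counted within borders set by the empty-vector lists. The Pcx sites lie below the line, while the long Gpd1 site and the Angptl4 site over the start lie near it.

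Islands that arose during differentiation were taken as empty-vector 48 h islands of replicate A that met one of replicate B and no 0 h island. The windows held 12: 6 in that of Pcx, 3 in that of Pdk4, 2 in that of Gpd1 and 1 in that of Angptl4. Both SETD5 48 h lists lacked 3 of the 12, beside 23.3% of the 6517 such islands of the genome. H3K4me1 was already present at 0 h at 5 of the 12 (genome 37.4%), and all 5 were in the Pcx window. SETD5-V5 of both replicates at 6 h overlapped 8 of the 12 (genome 37.5%), 5 of them in the Pcx window. With lists cut to equal size by score, it was 2 of 13, and the share over the genome fell likewise, to 11.2%.

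Tagged SETD5 covered more bases in both 6 h libraries than in both 0 h libraries at 3 of 6 members (Pdk4, Gpd1, Pcx), and 41.3% of all genes did so. Pdk4 had 9.6 and 2.2 kb at 0 h and 33.0 and 24.7 kb at 6 h. Pcx had 29.0 and 0 kb at 0 h and 89.0 and 55.0 kb at 6 h. Gpd1 had 65.6 and 20.6 kb at 0 h and 94.5 and 74.9 kb at 6 h, so that most of its window was covered. The Angptl4 values overlapped, with 33.6 and 13.8 kb at 0 h and 38.4 and 30.2 kb at 6 h. Each of these 0 h values is lower in replicate B, whose list is the short one. With equal numbers of islands per list Pdk4 and Gpd1 kept the increase and Pcx lost it, and with bases scaled to the total of each list Pdk4 and Pcx kept it and Gpd1 lost it. Of the 3, Pdk4 had it under both, but not with 10 kb of flank, where Angptl4 and Pcx had it. Counting only bases nearest each gene's own start, Angptl4, Pdk4 and Pcx had it. With islands above the median score Angptl4, Pdk4, Gpd1 and Pcx had it, and with islands counted in place of bases Pcx alone.

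SETD5-V5 also lay at single acetylated sites of the windows. At the Pdk4 site at 43.9 to 57.9 kb it covered 13.8 and 13.4 kb at 6 h and 4.0 and 0 kb at 0 h. At the Pcx site upstream of the gene it covered 20.8 and 10.4 kb at 6 h and 0 at 0 h. On the Pdk4 promoter it was listed in all libraries but replicate B of 6 h. On the Angptl4 start it was present in all 4 libraries, in islands of 8.6 and 6.2 kb at 0 h and 10.0 and 9.6 kb at 6 h. Both 6 h libraries overlapped 21 of the 28 sites (genome 53.2%). The sites of the windows were longer (median 6.2 kb beside 3.4 kb), and the part of length in this count was not tested.

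Endogenous SETD5 was listed at fewer places, with 1 library per time. At 6 h it lay on the Angptl4 start (-4.08 to 1.92 kb, 72.3% of the list scoring higher), at -42.7 to -37.1 kb of Angptl4 (55.0% scoring higher), and in an intron of Pcx at 99.7 to 107 kb, over the promoter of Lrfn4 (46.6% scoring higher). None of these was listed at 0 h. In the Gpd1 window it was listed at the far upstream border, 2.25 kb at 0 h and 0.655 kb at 6 h, and Pdk4 had none.

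H3K4me1 covered more bases at 48 h than at 0 h around 5 of 6 members, as it did for 46.6% of all genes, and the whole list grew from 123 to 133 Mb. The values were 59.0 and 108 kb for Pcx, 35.2 and 54.5 kb for Gpd1, and 25.6 and 43.8 kb for Angptl4. Pdk4 had 25.8 and 35.4 kb, and Aqp7 the 2.8 and 8.6 kb given above. Each time had a single library, so these differences carry no replicate error.

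**Figure D5:**
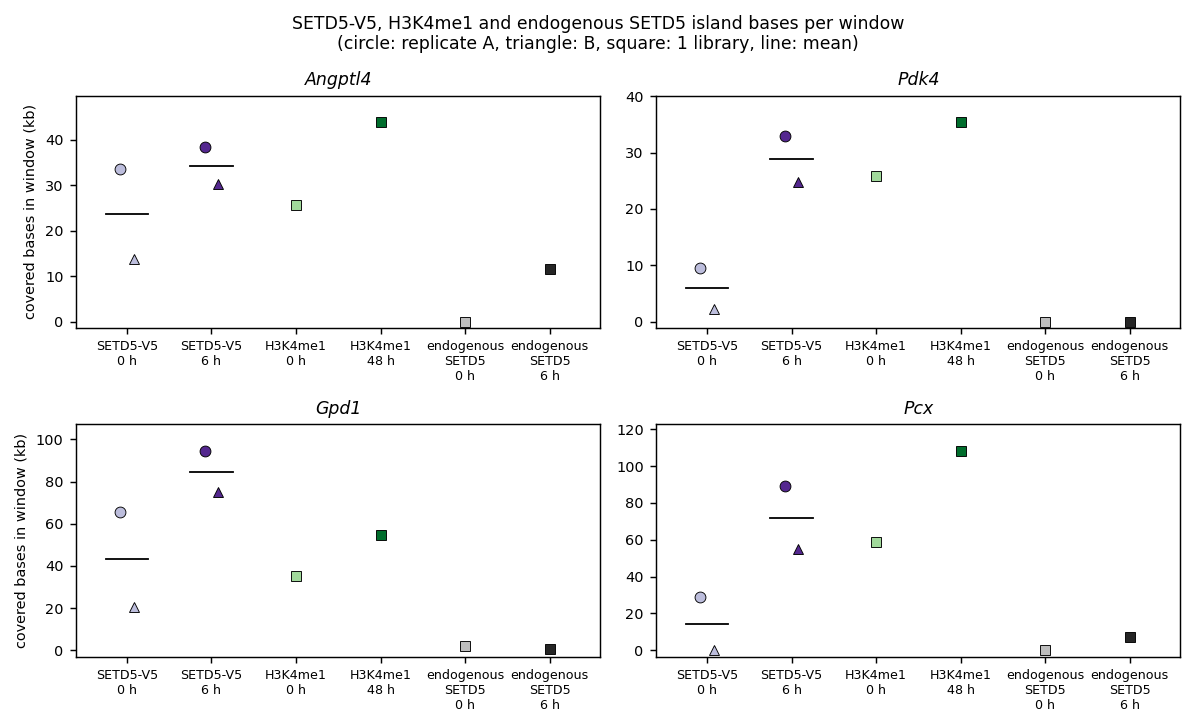
Covered bases (kb, y axis) of SETD5-V5, H3K4me1 and endogenous SETD5 islands in the windows of the 4 acetylated genes, by time (x axis). Circles are replicate A, triangles replicate B, lines their mean and squares single libraries; the lowest SETD5-V5 point of each gene is replicate B at 0 h.

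Other genes of the same pathways were read in the same windows of 50 kb flank, neighbours included. Of 37 genes in 4 groups, 18 rose (all genes 32.0%), 7 fell (all genes 18.6%) and the others overlapped from 0 h to 48 h in empty-vector cells, with a median change of 1.3 kb beside 0 for all genes and 8.85 kb for the 6 members. Against empty vector at 48 h, 14 of the 37 were lower with SETD5 (all genes 26.5%) and 4 were higher (all genes 17.8%). SETD5-V5 covered more bases at 6 h at 15 of 37, a share close to the 41.3% of all genes.

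Among the genes that act with Angptl4 on lipoprotein lipase, 2 of 5 rose and 1 fell. Lpl, the lipase itself, had 38.8 and 32.0 kb at 0 h, 66.1 and 58.8 kb at 48 h, and 34.0 and 32.2 kb at 48 h with SETD5, which did not overlap. Angptl6, a relative of Angptl4, rose by 2.1 kb on average. Gpihbp1, which holds the lipase on the capillary wall, fell from 42.4 and 37.2 kb to 16.2 and 16.6 kb. Of the genes of pyruvate dehydrogenase and its control, 4 of 11 rose and 2 fell. Dld rose from 1.4 and 2.4 kb to 11.0 and 8.4 kb and Dlat from 5.4 and 6.4 kb to 12.2 and 10.6 kb; both encode subunits of the complex that Pdk4 shuts off. The phosphatase gene Pdp1, which reverses the kinase, fell from 44.6 and 39.2 kb to 31.8 and 33.6 kb.

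Enzymes and carriers of pyruvate, malate and gluconeogenesis rose at 10 of 15 and fell at 1. G6pc went from 19.8 and 16.2 kb to 37.5 and 29.9 kb, and Slc25a10, a mitochondrial dicarboxylate carrier, from 24.5 and 19.1 kb to 35.3 and 32.3 kb. With SETD5 at 48 h these had 17.9 and 17.2 kb, and 13.9 and 14.7 kb. The window of the malic enzyme gene Me3 fell from 54.8 and 34.0 kb to 13.2 and 12.8 kb. In the glycerol group 2 of 6 rose and 3 fell. Gpd1l, a relative of Gpd1, rose by 3.3 kb and Aqp3, whose window overlaps that of Aqp7, by 1.2 kb, while Gpd2, the mitochondrial partner of Gpd1, fell from 9.6 and 5.6 kb to 2.0 and 1.6 kb.

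The genes most like each member over the 8 H3K27ac libraries were found by Euclidean distance on log2 of covered bases plus 200. For Pcx they were Iqck (0.498) and Xrcc4 (0.669). Iqck had 34.0 and 20.8 kb at 0 h, 79.6 and 79.2 kb at 48 h, and 53.2 and 58.2 kb at 48 h with SETD5. For Pdk4 they were Crispld2 (0.477) and Stat5b (0.479), and for Angptl4 Pbx2 (0.209) and Ager (0.310), adjacent genes whose windows share most of their bases. For Gpd1 they were Ddx25 (0.338) and 9430097D07Rik (0.388). Pck1 was tied with 4135 genes without any acetylated base and Aqp7 with 4 genes at distance 0, so no gene is named for these.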

How the data were processed

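ChIP-seq island lists of 16 libraries of 3T3-L1 cells were used as deposited. Per the study's methods, reads were mapped to mm9 with ELAND or Bowtie2 and islands were called in each library with SICER, with a wider gap for SETD5 than for histone marks; replicates were not pooled. The deposited score column is the authors' island score, and was used only for its rank within a list. The submitters' processing notes name Bowtie2, SICER and deepTools. Island starts lay on a grid of 200 bp, and least distances between islands were 600 bp (histone marks) and 800 bp (SETD5). These settings join nearby enrichment, so covered bases depend on the caller.

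Coordinates were made 1-based. Gene models were GENCODE vM1 on NCBIM37 (mm9). For each of 22225 protein-coding genes the island number and the bases covered within the gene body plus 50 kb were computed in each library (Python 3.11.15, numpy 2.4.6, pandas 2.3.3, pysam 0.24.0). A gene was called higher in a group when both of its libraries exceeded both of the other group, and the exact two-sided permutation test of scipy 1.17.1 was run for members. Window sums equalled those of bedtools 2.31.1 in all 22225 windows, and 199 of 200 gains planted in simulated copies of an empty-vector 0 h list were called. The planted gains were long islands centred on gene starts, and the copies differed otherwise only by random loss of a small share of islands. They check the code and do not show how often smaller gains would be called between real replicates. The lists carry no read counts per island, so values could not be scaled to the total reads that the study states for each library.

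Named genes were all 6 members with, from 4 fixed groups of pathway genes, up to 2 with the largest gain and 1 with the largest loss whose 48 h and 0 h libraries with empty vector did not overlap, and the 2 nearest genes by distance. Members and lists were chosen with earlier results of these data known. Alternatives changed the flank, the islands used, the measure and the libraries.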

Additional observations from a re-analysis of the deposited data

How the results depend on the processing

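The counts of members were recomputed under 11 alternatives and those of newly arisen islands under 8. For the member counts the share over all genes under each alternative is not given. Their shifts therefore describe dependence on the settings and are not results about the members. With 10 kb of flank, 1 member had fewer bases in SETD5 at 0 h, 1 had the smaller gain, and 1 of 7 newly arisen islands was absent from both SETD5 lists (genome 23.3%). With 100 kb of flank, 5 members rose in empty vector, 1 was lower in SETD5 at 48 h and 5 gained SETD5-V5. Counting islands in place of bases gave 0 members lower in SETD5 at 48 h, 0 with the smaller gain and 1 with more SETD5-V5. Members lower in SETD5 at 0 h numbered 1 with bases nearest the own start site and 1 above the median score. Newly arisen islands absent from both SETD5 lists numbered 7 of 15 with an overlap of at least 50% (genome 29.3%) and 1 of 9 after merging within 1000 bp (genome 22.9%); those overlapping SETD5-V5 numbered 4 of 6 above the median score (genome 34.1%) and 2 of 13 with equal numbers of islands (genome 11.2%). With a single library per group, which leaves no test, members lower in SETD5 at 0 h were 1 to 3 and newly arisen islands absent from SETD5 3 of 14 to 6 of 17 (genome 36.3% and 30.7%). The Gpd1 difference between SETD5 and empty vector at 48 h turned to -1.37 kb with 10 kb of flank, -0.200 kb with nearest bases and -1.40 kb with equal numbers. Of differences whose groups overlapped, that of Aqp7 between times turned to 1.20 kb with 100 kb of flank, and that of Pdk4 between vectors at 48 h to 2.40 kb without replicate A and to 0.500 islands when islands were counted. In other settings Pdk4 was lower with SETD5 at 48 h without overlap. These were islands above the median score, equal numbers of islands, and bases scaled to the total of each list. Members that rose in SETD5 numbered 3, without Gpd1, with equal numbers of islands and above the median score. The causes were not tested. The letters A and B share only a name: in the replicate block, with changes taken within each letter, 4 members rose in empty vector, 4 in SETD5 and 4 gained SETD5-V5, 2 were lower in SETD5 at 48 h and 0 at 0 h, and 3 had the smaller gain; correlations of the deviations of same-lettered libraries were -0.0323 to 0.0859 over genes. The total reads that the study states were not used to scale the lists, so the part of depth in these values was not tested.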
